A study of Rattus norvegicus with 10 samples.

Results

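The genes described here encode protein components of the cytosolic ribosome or their close relatives. They were taken by gene symbol (Rpl, Rplp, Rps and Rpsa names) from probe sets that the platform annotation pairs with a single gene. They number 44 of the 14217 genes on the array, 30 of the large subunit and 14 of the small subunit. Neither subunit is complete in this set, and 33 probe sets that name a ribosomal protein among several genes were left out. Each gene is represented by its probe set with the highest mean. The RNA came from axons of rat dorsal root ganglion neurons, the sensory neurons whose cell bodies lie beside the spinal cord. There were 5 arrays from embryos at day 16 and 5 from adult rats. In both stages explants of the ganglia had grown for 4 days in a chamber with compartments, and axons longer than 1 cm were taken from the outer one. No group carries a treatment or a genetic change. The labels call the samples of a stage biological replicates. Neither strain nor adult age, nor any pooling of animals, is stated in the sources used here.

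A ribosome is built from a small subunit, which reads the mRNA, and a large subunit, which joins amino acids into protein. Most of its proteins are assembled with ribosomal RNA in the nucleolus, and their mRNAs are among the most abundant in growing cells. Many of these mRNAs begin with a cytosine followed by an unbroken stretch of cytosines and thymines (the 5′ terminal oligopyrimidine tract), through which the mTOR pathway controls their translation. Ribosomal protein mRNAs are also known from axons of sensory and other neurons, far from the nucleolus.

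The start of the transcript is where this shared feature lies, so the 30 bases around the annotated start (15 before it and 15 from it on) are shown for 10 members on which the values below turn. Of the 44 members, 39 matched an entry among 27457 RefSeq promoters of the GRCr8 assembly, 37 by gene number and 2 by symbol. Unmatched were Rpl23a, Rpl27, Rpl30, Rpl7 and Rps29. The sequences read 5′ to 3′ on the gene's strand, and capitals mark the longest run of C and T that comes within 5 bases of the start, where it has at least 4 bases.
Rps23: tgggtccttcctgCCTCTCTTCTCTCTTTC
Rpl35: cgCCCCTTCCTCTTTCTCTCgaaccgggcg
Rpl4: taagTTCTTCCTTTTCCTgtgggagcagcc
Rps15: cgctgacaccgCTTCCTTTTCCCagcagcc
Rpl19: cgcgaccagcaagCTCTTTCCTTTCgctgc
Rplp0: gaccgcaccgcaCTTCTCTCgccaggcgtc
Rpl3: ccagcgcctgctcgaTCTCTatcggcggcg
Rpl41: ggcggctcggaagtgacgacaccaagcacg
Rps27l: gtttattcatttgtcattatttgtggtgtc
Rpl3l: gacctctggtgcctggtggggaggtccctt

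These windows lie at chr2:23814502-23814531 (plus strand) for Rps23, chr3:43165907-43165936 (minus) for Rpl35 and chr8:73566462-73566491 (plus) for Rpl4. They lie at chr7:10068101-10068130 (minus) for Rps15, chr10:83519049-83519078 (plus) for Rpl19 and chr12:46718376-46718405 (minus) for Rplp0. The others are chr7:113507976-113508005 (minus) for Rpl3, chr7:1563483-1563512 (minus) for Rpl41, chr8:76443643-76443672 (plus) for Rps27l and chr10:14258431-14258460 (plus) for Rpl3l. The run in Rps23 continues past the printed window to 21 bases, the longest of the 10 shown. It has 18 bases in Rpl35, 14 in Rpl4, 12 in Rps15 and in Rpl19, and 8 in Rplp0. In Rpl3 it has 5 bases, and in Rpl41, Rps27l and Rpl3l no run of 4 or more comes within 5 bases of the start. In Rpl35 and Rpl4 most of the marked run lies before the annotated start.

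Over the 39 matched members, 21 (53.8%) had a run of at least 8 bases within 5 bases of the start, against 8.65% of all promoters in the table. The median run was 9 bases in the members and 3 in the whole table. In the 30-base windows, with both strands searched, CTCTTT was present in 10 members (25.6%, against 2.08% of all windows), CTTTCC in 9 (23.1%, against 2.56%) and CTTTTC in 5 (12.8%, against 2.05%). These 3 motifs share letters and can overlap. At least 1 of them was present in 19 members (48.7%) and in 6.17% of all windows. The run length and the motifs were chosen after the sequences had been seen, and a match is a description of letters in an annotated window.

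All values are log2 intensities. Genes of other tissues (81 genes, 95 probe sets) set a background level on each array, their 95th percentile, and it lay between 2.91 and 4.10. Arrays also differed in the SD of their values, from 1.52 to 2.09. The 4 arrays with an SD above the middle of that range, replicates 1 and 5 of the embryonic and 4 and 5 of the adult stage, are called wide here, and the other 6 narrow. On wide adult arrays 9473 to 9784 genes were above background, and on narrow adult arrays 5261 to 6356. The hybridisation controls, which are added after labelling, averaged 8.56 and 9.99 on the wide adult arrays and 11.8 to 12.6 on the narrow ones. The poly-A controls, which are added before labelling, averaged 2.11 to 2.73 on embryonic and 7.64 to 11.97 on adult arrays, so that their use and stage cannot be told apart. Of 13 sensory neuron and axon markers, 12 were above background on all embryonic arrays and 11 on all adult arrays.

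Ribosomal protein genes gave some of the strongest signals on every array. Above background on all 10 arrays were 40 of the 44 members (90.9%, 27 of 30 in the large and 13 of 14 in the small subunit), against 17.2% of all genes. For single stages the backgrounds were 28.1% (embryonic) and 23.9% (adult), and the same 40 members were above background in both. The median of the members was 10.44, 10.77, 10.42, 10.50 and 10.93 on embryonic replicates 1 to 5, and 9.82, 9.67, 9.80, 11.08 and 11.27 on adult replicates 1 to 5. The 3 narrow adult arrays lay below all embryonic arrays, and the 2 wide adult arrays lay above all of them. Within an array, the members' median percentile among all genes lay between 99.33 and 99.66 on all 10 arrays. The top 1% of genes held 24 to 32 members, and the top 5% held 31 to 38. Such ranks describe signal on the array, since probe sets differ in how strongly they respond, and they are no order of transcript numbers.

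**Figure D1:**
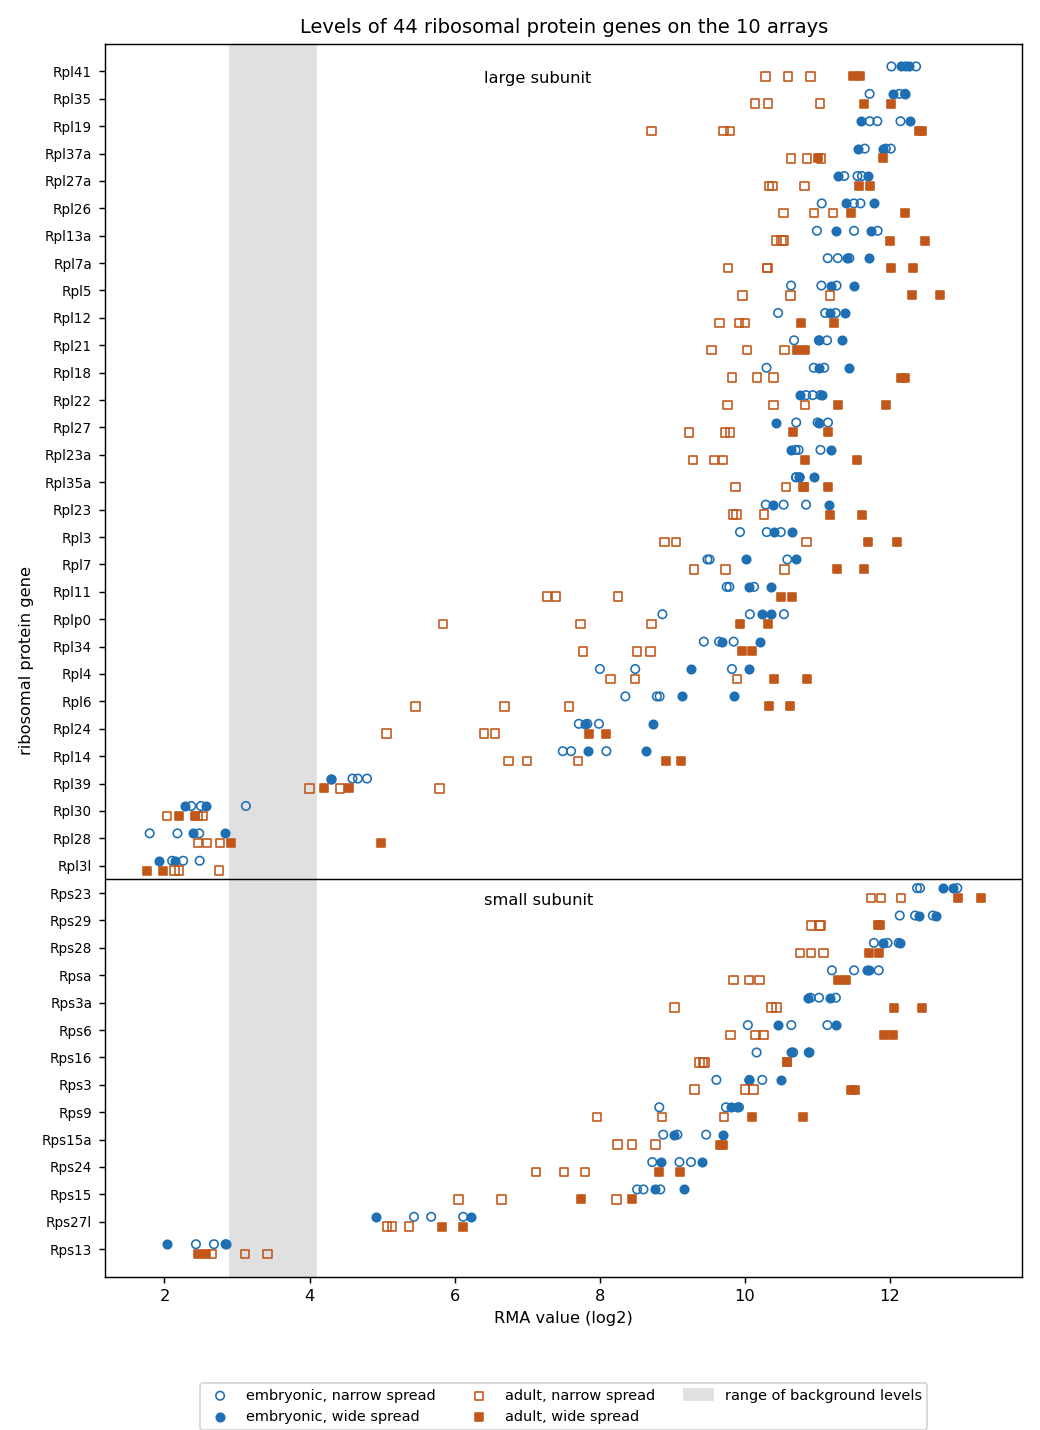
RMA value (log2, x axis) of each of the 44 ribosomal protein genes (y axis, by subunit) on each of the 10 arrays, with embryonic arrays as circles, adult arrays as squares, wide arrays filled and narrow arrays open; the grey band is the range of background levels, 2.91 to 4.10. Most genes lie far above the band, Rpl30, Rpl28, Rpl3l and Rps13 lie at or near the band, and open squares stand to the left of the other symbols for many genes.

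Rps23, a protein of the decoding centre, had the highest value of the members on all 10 arrays. Its embryonic values were 12.73, 12.93, 12.37, 12.42 and 12.88 and its adult values 12.16, 11.88, 11.74, 12.94 and 13.25. The stages overlapped, with the wide adult arrays at the top. Next in mean percentile were Rps29 (99.94), Rps28 (99.91), Rpl41 (99.88) and Rpl26 (99.87). At the other end, Rpl3l, the form of Rpl3 known from striated muscle, was below background on all 10 arrays, at 1.92 to 2.49 (embryonic) and 1.75 to 2.76 (adult). Rpl30 (2.28 to 3.12 and 2.03 to 2.53) and Rps13 (2.04 to 2.85 and 2.47 to 3.42), both constitutive components, were also low. Rpl28 was above background on a single array, adult replicate 5, at 4.99, and was at 1.80 to 2.92 on the other 9. Rpl39, a small protein of the exit tunnel, lay at 4.29 to 4.79 and 4.00 to 5.79, and Rps27l, a p53-inducible relative of Rps27, at 4.91 to 6.23 and 5.07 to 6.12. The low values of constitutive members come from single probe sets, and each of these 4 genes (Rpl30, Rps13, Rpl28 and Rpl39) had no other that names it alone.

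The large subunit genes of this incomplete set gave a slightly stronger signal than its small subunit genes, by an amount that depended on the choice of probe sets. The median of the large subunit minus that of the small subunit was 0.27, 0.21, 0.64, 0.47 and 0.30 on the embryonic arrays and 0.25, 0.33, 0.32, 0.03 and 0.35 on the adult arrays. It was above 0 on all 10 arrays and the stages overlapped, with means of 0.38 ± 0.18 and 0.26 ± 0.13 (SD, n = 5). Without probe sets of shared sequence (suffix _a, _s or _x) these means were 0.83 and 0.72, and with the mean of each gene's probe sets 0.74 and 0.50. Leaving out the suffixed probe sets also put Rps24 on a probe set that was above background on 2 arrays only. The median change from embryonic to adult was -0.37 for the large and -0.27 for the small subunit. The median percentile was 99.63 and 99.39 in embryonic arrays and 99.45 and 99.38 in adult arrays.

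Most of the 44 genes shared a pattern across the arrays. Each gene's deviation from its own mean over the 10 arrays was taken, and the median over the members was 0.09, 0.31, 0.21, 0.02 and 0.54 on the embryonic arrays. On the adult arrays it was -0.67, -0.90 and -0.71 in replicates 1 to 3 and 0.54 and 0.57 in replicates 4 and 5. The narrow adult arrays were thus apart from the other 7. Only 4, 1 and 9 of the 44 members were above their own mean there, and 37 and 37 on the wide adult arrays. For all genes the share above their own mean was 41.4% to 52.1% over the 10 arrays.

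**Figure D2:**
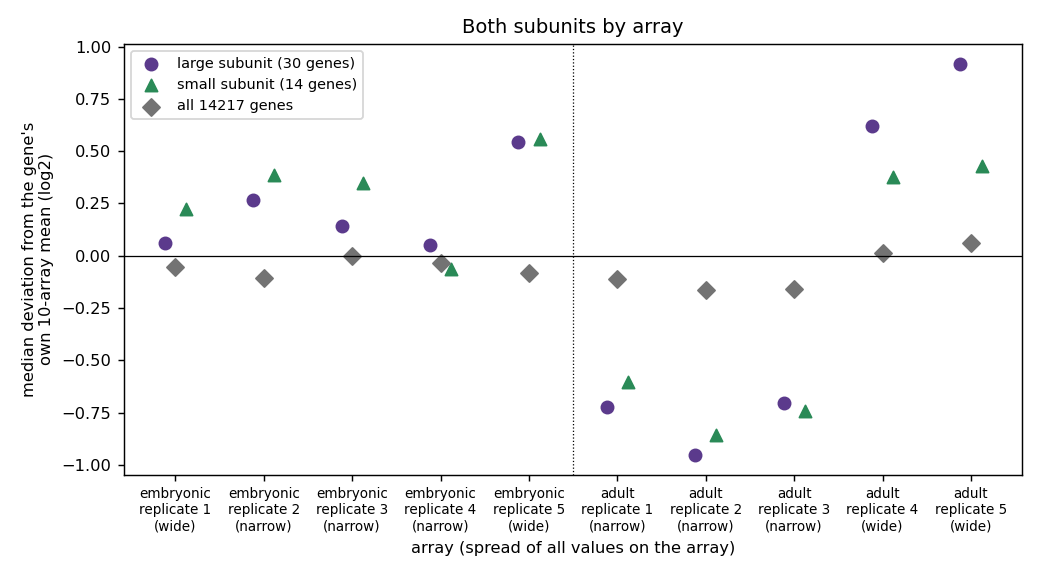
Median deviation (log2, y axis) of the genes from their own mean over the 10 arrays, on each array (x axis, with its spread), for the large subunit (circles), the small subunit (triangles) and all 14217 genes (diamonds). Both subunits lie below -0.60 on the 3 narrow adult arrays and above 0.37 on both wide adult arrays, while all genes stay near 0.

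The spread among adult arrays was larger than among embryonic arrays for 42 of the 44 members (95.5%), against 63.2% of all genes, the exceptions being Rpl30 and Rps27l. The median SD of the members was 0.29 over the embryonic and 0.84 over the adult arrays. It was 0.63 and 0.80 for all genes, and 0.69 and 1.12 for the other 673 genes in the top 5% by mean level, of which 71.8% had the larger SD in adult arrays. Within the 3 narrow arrays of each stage 29 members had the larger SD in adult arrays, and within the 2 wide arrays 18. The count of 42 thus held over all arrays of a stage and not within either kind of array. Shares of all genes within the 2 kinds are not given here, so the counts of 29 and 18 have no comparison. Least variable were Rpl30 (pooled SD within stages 0.28), Rpl3l (0.30) and Rpl35a (0.34), and most variable were Rpl6 (1.65), Rplp0 (1.36) and Rpl19 (1.22).

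**Figure D3:**
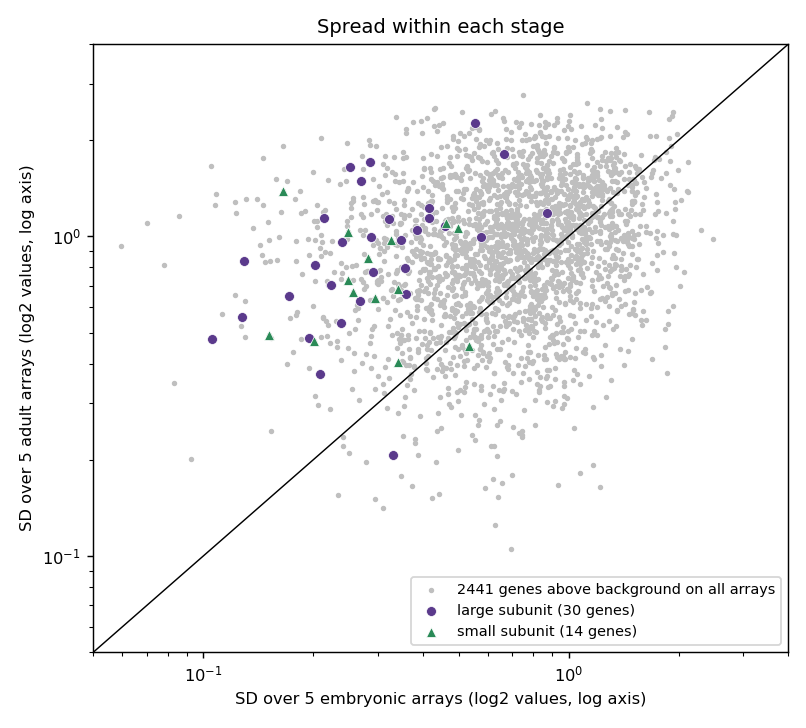
SD over the 5 adult arrays (y axis) against SD over the 5 embryonic arrays (x axis), both of log2 values on log axes, for large subunit genes (circles), small subunit genes (triangles) and the 2441 genes above background on all arrays (grey dots); the line marks equal SDs. Of the 44 ribosomal protein genes, 42 lie above the line.

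Within the adult stage, 38 of the 44 members (86.4%) were higher on both wide arrays than on all 3 narrow ones, against 28.2% of all genes. The exceptions were Rpl30, Rpl37a, Rpl39, Rpl3l, Rps13 and Rps15. Wide and narrow were defined by the SD of these same values, and a larger SD tends to go with higher values of strong signals. The count of 38 is therefore not independent of the split. All genes, of which 17.2% were above background on all 10 arrays, are a weak comparison for it. The median difference between wide and narrow adult arrays was 1.34 for the members and 0.23 for all genes. It was 1.42 for the other genes of the top 5%, of which 58.4% were separated in this direction. Between the wide and narrow embryonic arrays the members' median difference was 0.21. Other lists differed between the adult arrays in either direction. The median difference was 1.67 for 41 ribosome assembly factors, 2.36 for 15 other mRNAs with a 5′ oligopyrimidine tract and 3.02 for 10 fibroblast markers. The medians were 1.17 for satellite glial, 0.98 for sensory neuron and axon, 0.37 for Schwann cell, -0.01 for macrophage, -0.21 for endothelial, -0.93 for erythroid and -1.44 for neuronal cell body markers. The fibroblast list (log2 of the summed level) was at 11.34 and 12.02 on the wide adult arrays, at 7.16 to 10.05 on the narrow ones and at 7.93 to 10.02 on embryonic arrays, and its marker Fbln1 was below background on all arrays. Actin probe sets at the 3′ end exceeded those at the 5′ end, a sign of RNA quality, by 6.04 and 5.53 on the wide and by 3.03, 3.66 and 5.21 on the narrow adult arrays, and by 4.34 to 5.52 on embryonic arrays. The part of these cells, of RNA quality, of hybridisation or of array spread in the members' values was not tested. In such bulk samples fewer cells of a type and less RNA per cell cannot be told apart.

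Between the stages, 0 of the 44 members passed limma's test at an adjusted p of 0.05, against 1.26% of all genes (0.647% lower and 0.612% higher in adult). At an unadjusted p under 0.05 there were 12 members with the lower mean in adult axons (27.3%, against 7.01% of all genes) and 0 with the higher (against 6.28%). These 12 were Rpl12, Rpl21, Rpl24, Rpl35, Rpl37a and Rpl41 of the large and Rps15, Rps16, Rps24, Rps28, Rps29 and Rpsa of the small subunit. In 3 members, Rpl41, Rps15 and Rps29, all adult values lay below all embryonic ones (6.82%, against 1.86% of all genes), and in 0 the reverse held (against 1.67%). The change was below 0 in 35 members (79.5%), against 50.1% of all genes and 59.3% of the other genes in the top 5% by mean level. After quantile scaling of the arrays it was below 0 in 25 members and in 7082 of all 14217 genes. After cyclic loess scaling it was below 0 in 22 members and in 6751 of all genes. The median change over the members was -0.27, or -0.07 and 0.02 under these scalings, and that over all genes was 0.00, 0.00 and 0.03. In the other genes of the top 5% the median change was -0.33, or -0.26 and 0.03. On simulated data with 50 probe sets per size, the test recovered 6% of changes of 1 on the log2 scale and 56% of changes of 2. The simulation drew from all probe sets, with the same SD in both stages and no pattern shared between genes. The members' median SD was 0.29 in embryonic and 0.84 in adult arrays, so these shares are not those of the members. A change of 1 or more was seen in 9 members, all with the lower adult mean.

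The changes differed with the kind of array compared, but the stages were not alike in SD within either kind. The narrow adult arrays had SDs of 1.52 to 1.65 and the narrow embryonic ones 1.68 to 1.71. The wide adult arrays had SDs of 2.06 and 2.09 and the wide embryonic ones 1.957 and 1.967. The part of these differences in the changes below was not tested. Over the 3 narrow arrays of each stage the median change of the members was -0.93, and 28 of 44 (18 large, 10 small) were lower in all adult than in all embryonic arrays, against 11.2% of all genes, with 0 higher (against 7.53%). Over the 2 wide arrays of each stage the median change was 0.26, with 8 members lower without overlap (18.2%, against 24.8% of all genes) and 19 higher (against 26.7%). The 8 were Rpl21, Rpl35, Rpl41, Rps15, Rps16, Rps28, Rps29 and Rpsa. For the other genes of the top 5% the medians were -0.77 on narrow and 0.26 on wide arrays. By limma 0 members passed in either subset. With spread as a block in the fit over all 10 arrays 2 members passed, against 1.94% of all genes. They were Rpl41 (adjusted p = 0.044) and Rps29 (adjusted p = 0.040), both lower in adult axons. The block has only the levels wide and narrow, so it leaves the differences in SD within each kind. Neither gene passed limma's test after quantile or cyclic loess scaling (adjusted p = 0.18 and 0.17 for Rpl41, 0.17 and 0.38 for Rps29).

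**Figure D4:**
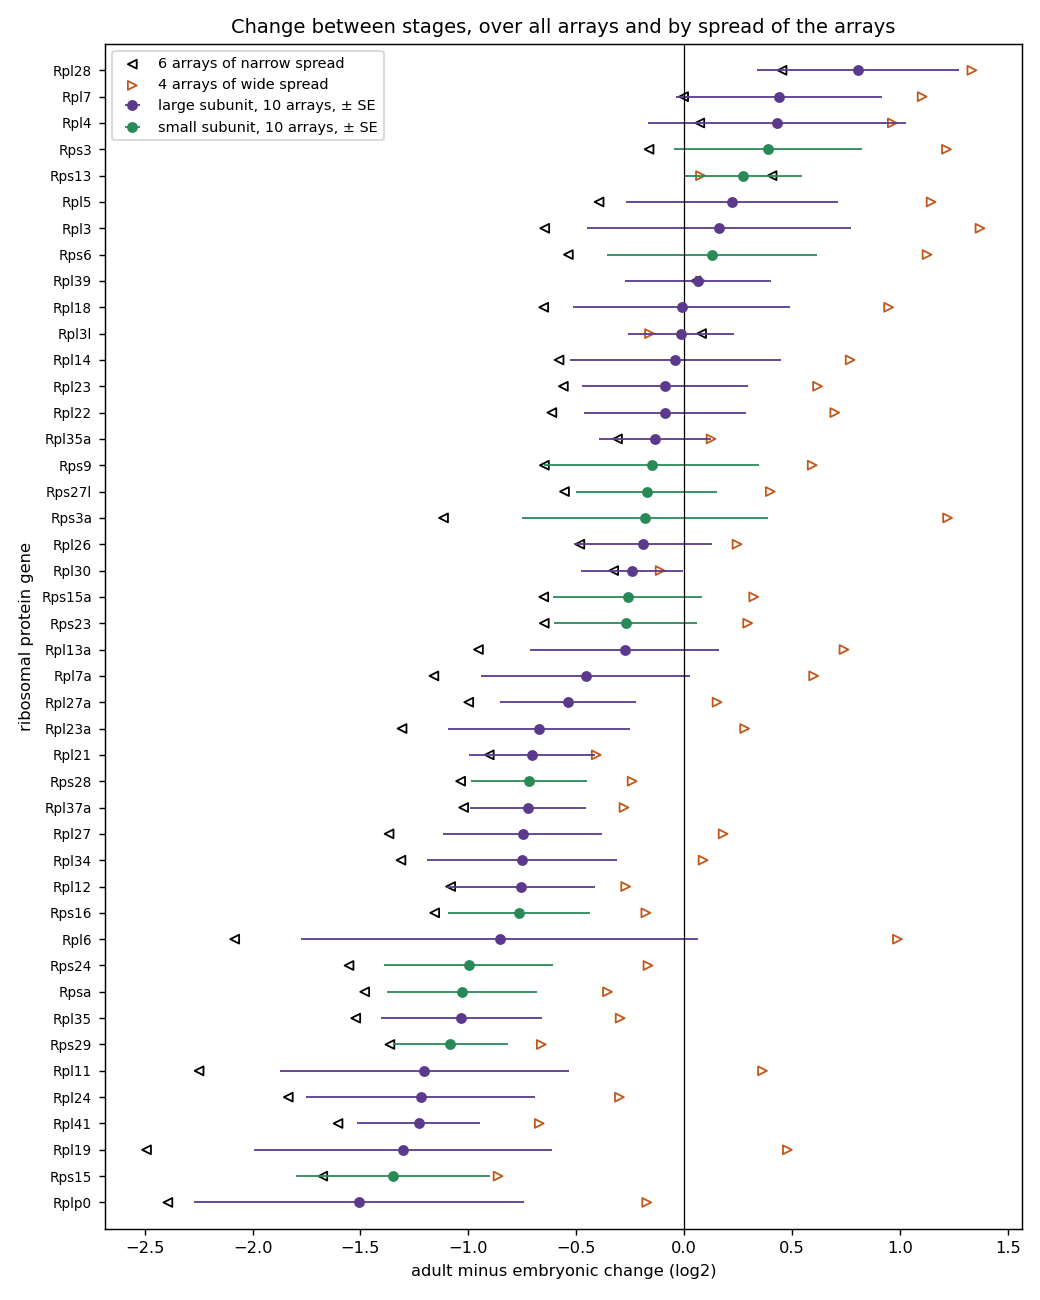
Adult minus embryonic change (log2, x axis) of each of the 44 ribosomal protein genes (y axis, sorted), over all 10 arrays with its SE (filled circles, by subunit), over the 6 narrow arrays (triangles pointing left) and over the 4 wide arrays (triangles pointing right). The changes run from -1.50 (Rplp0) to 0.81 (Rpl28), and the medians are -0.93 on narrow and 0.26 on wide arrays.

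In the large subunit, Rpl41, a very short peptide between the subunits, separated the stages. Its embryonic values were 12.15, 12.36, 12.22, 12.02 and 12.27 and its adult values 10.29, 10.60, 10.90, 11.49 and 11.59. The adult arrays were all lower, the wide ones least so, and the change was -1.23 ± 0.29 (SE; limma adjusted p = 0.090), or -0.76 under quantile and -0.69 under cyclic loess scaling. It is also one of the members shown above with no C and T run at the annotated start. Rpl19 and Rpl24 both form bridges to the small subunit. Rpl19 was at 11.61, 12.15, 11.83, 11.72 and 12.28 in embryonic and at 9.80, 9.71, 8.71, 12.40 and 12.45 in adult axons. The wide adult arrays exceeded every embryonic array and the narrow ones lay below them all, so the change of -1.30 ± 0.69 (adjusted p = 0.61) became 0.48 over wide arrays alone and -2.49 over narrow arrays. It was -0.90 under quantile and -0.77 under cyclic loess scaling. Rpl24 was at 7.80, 7.99, 7.83, 7.71 and 8.73 and at 6.56, 6.41, 5.06, 8.08 and 7.85, a change of -1.22 ± 0.53 (adjusted p = 0.47), with the wide adult arrays inside the embryonic range.

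Rplp0, the base of the stalk that recruits elongation factors, had the most negative change, -1.50 ± 0.76 (adjusted p = 0.58). Its embryonic values were 10.36, 10.07, 10.54, 8.86 and 10.24 and its adult values 8.72, 5.84, 7.74, 10.31 and 9.94. Narrow adult arrays were again lowest, and embryonic replicate 4 was apart from its group. Rpl6 had the largest spread, at 9.13, 8.83, 8.35, 8.79 and 9.85 against 7.57, 6.69, 5.46, 10.62 and 10.33. Its narrow adult arrays lay below all embryonic arrays and, unlike for Rplp0, its wide adult arrays lay above all of them. The change of -0.85 ± 0.92 (adjusted p = 0.88) was 0.99 on wide arrays alone and -0.46 under cyclic loess scaling.

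Rpl5 and Rpl11 bind the 5S ribosomal RNA and, outside the ribosome, the p53 regulator Mdm2. Rpl11 was at 10.06, 10.13, 9.75, 9.79 and 10.36 in embryonic and at 8.25, 7.27, 7.39, 10.65 and 10.50 in adult axons (change -1.20 ± 0.67, adjusted p = 0.64). Rpl5 was at 11.20, 11.27, 11.06, 10.64 and 11.51 and at 11.17, 10.63, 9.97, 12.30 and 12.69 (change 0.22 ± 0.49, adjusted p = 0.96). Both were highest on wide adult arrays. Under quantile and cyclic loess scaling the change was -1.06 and -0.77 for Rpl11 and 0.67 and 0.75 for Rpl5. The control probe set for 5S RNA was at 8.99, 10.32, 7.72, 7.43 and 9.01 in embryonic and at 5.62, 4.87, 5.00, 5.12 and 2.72 in adult axons. Here, unlike for the mRNAs of Rpl5 and Rpl11, all adult values were lower and the wide arrays were not the highest of the adult group. How far this control reports the level of 5S RNA was not tested. The poly-A controls also differed between the stages, at 2.11 to 2.73 on embryonic and 7.64 to 11.97 on adult arrays. Mdm2 had a change of -2.32 ± 0.87 (adjusted p = 0.36).

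Rpl3 lies near the catalytic centre, and Rpl4, Rpl26, Rpl35 and Rpl39 line the exit tunnel or its opening. Rpl3 was at 10.41, 10.50, 9.93, 10.30 and 10.65 and at 8.89, 9.05, 10.85, 11.70 and 12.10. Adult replicate 3, a narrow array, was above all embryonic arrays as the wide ones were, and the change of 0.16 ± 0.61 was -0.65 over narrow arrays. Rpl4 was at 9.26, 9.82, 8.002, 8.49 and 10.06 and at 8.49, 8.15, 9.90, 10.85 and 10.40 (change 0.43 ± 0.60), with adult replicate 3 again high. Rpl35 was at 12.05, 12.13, 12.21, 11.72 and 12.20 and at 10.14, 10.32, 11.04, 11.64 and 12.02 (change -1.03 ± 0.37, adjusted p = 0.33), in the same order of adult arrays as Rpl41. The estimates for Rpl4 and Rpl35 had opposite signs, and neither passed limma's test (adjusted p = 0.92 for Rpl4). Both genes have a long C and T run across the annotated start, and a link between run and change was not tested. Under quantile and cyclic loess scaling the change was -0.49 in both cases for Rpl35, 0.47 and 0.65 for Rpl3 and 0.60 and 0.86 for Rpl4.

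The other large subunit genes described here did not pass the test either. Rpl7 had a change of 0.44 ± 0.48 over means of 10.06 ± 0.57 and 10.50 ± 0.99 (SD, n = 5), with 0.70 and 0.92 under quantile and cyclic loess scaling and -0.0024 over narrow arrays. The change was -0.19 ± 0.32 for Rpl26, -0.14 ± 0.26 for Rpl35a, which is mutated in some cases of Diamond-Blackfan anaemia, and -0.09 ± 0.37 for Rpl22, which also binds viral RNA. The sign of these last 3 turned under quantile scaling (0.30, 0.23 and 0.29) and cyclic loess scaling (0.34, 0.37 and 0.42). The change was 0.06 ± 0.34 for Rpl39, -0.24 ± 0.24 for Rpl30 and 0.81 ± 0.47 for Rpl28, where the last is carried by adult replicate 5.

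In the small subunit, Rps29 and Rps15, both of the head of the subunit, separated the stages. Rps29 was at 12.40, 12.59, 12.35, 12.14 and 12.63 in embryonic and at 11.04, 11.03, 10.91, 11.84 and 11.87 in adult axons, a change of -1.08 ± 0.27 (adjusted p = 0.12). Rps15 was at 8.76, 8.60, 8.84, 8.52 and 9.16 and at 6.05, 6.65, 8.23, 8.45 and 7.75, a change of -1.35 ± 0.45 (adjusted p = 0.28). Of the adult arrays, replicates 1 and 2 were lowest for Rps15, while replicate 3 stood among the wide arrays. Rpsa, which is also known as a laminin receptor, was at 11.68, 11.85, 11.51, 11.20 and 11.72 and at 9.85, 10.06, 10.21, 11.29 and 11.40 (change -1.03 ± 0.35, adjusted p = 0.28). Its other probe sets gave -1.07 and -0.26, and its own is marked as sharing sequence with other transcripts. Rps28 was at 11.91, 12.12, 11.97, 11.78 and 12.14 and at 11.08, 10.76, 10.91, 11.72 and 11.85 (change -0.72 ± 0.27, adjusted p = 0.36). Both wide adult arrays lay in the embryonic range for Rpsa and 1 of them did for Rps28, and the narrow ones lay below it. The change was smaller under quantile and cyclic loess scaling, at -0.64 and -0.52 for Rps29, -0.63 and -0.51 for Rpsa and -0.16 and -0.17 for Rps28.

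Rps6, the substrate of the S6 kinases that act below mTOR, had the opposite sign. It was at 10.46, 11.14, 10.04, 10.64 and 11.25 in embryonic and at 10.15, 9.80, 10.26, 11.91 and 12.05 in adult axons (change 0.13 ± 0.49, adjusted p = 0.98), and -0.54 over narrow arrays. Rps3, at the entry of the mRNA channel, was at 10.05, 10.24, 9.61, 10.06 and 10.50 and at 10.12, 9.30, 10.001, 11.46 and 11.53 (change 0.39 ± 0.44, adjusted p = 0.89), and -0.16 over narrow arrays. For both, the wide adult arrays were above all embryonic arrays. Quantile and cyclic loess scaling gave 0.49 and 0.63 for Rps6 and 0.67 and 0.87 for Rps3. Rps24, another gene of Diamond-Blackfan anaemia, had a change of -0.999 ± 0.39 (adjusted p = 0.40; -0.61 under cyclic loess scaling) in its main probe set and 0.25 in a second, which was above background on 2 arrays only. The change was -0.27 ± 0.33 for Rps23 and -0.17 ± 0.33 for Rps27l, with 0.20 and 0.32 for Rps23 under quantile and cyclic loess scaling and 0.05 for Rps27l under the latter. It was 0.27 ± 0.27 for Rps13, near background.

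Members with long and with short C and T runs had similar medians. The median change was -0.27 in the 21 members with at least 8 bases (range -1.50 to 0.81) and -0.32 in the 18 with fewer (range -1.23 to 0.39).

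Paralogues can stand in for one another in the ribosome, and 2 of the 8 pairs considered had both genes on the array with a probe set of their own. For Rpl3 and Rpl3l the balance could not be measured, since Rpl3l was below background on all 10 arrays. The within-array difference of Rpl7 and Rpl7l1, a relative with a role in ribosome assembly, was 4.06 ± 0.55 in embryonic and 3.93 ± 0.50 in adult axons (SD, n = 5; exact permutation p = 0.69, two-sided, adjusted p = 0.79 over 2 pairs). This difference between stages was smaller than the spread between arrays, and the values themselves are set by different probes and give no ratio of transcripts.

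Probe sets assigned to several symbols, at least 1 of them a ribosomal protein, were not used as members. There were 33 of them, all above background on all 10 arrays. Their median change was -0.59 (range -1.42 to 0.42), 28 of the 33 were below 0 and 0 passed the test. Of all genes above background on all arrays, 58.7% had a change below 0. Ribosomal protein genes have many processed pseudogenes, and a probe set cannot separate nearly identical copies. For 4 members the identifier of the probe set carries a suffix for probes that match several transcripts, _a in 3 and _s in 1. Such transcripts can belong to the same gene, so the suffix alone does not mark a match to another gene.

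The lists around the ribosome had 0 genes past the threshold in either direction, against 1.26% of all genes. At an unadjusted p under 0.05, to which the counts below are to be compared, 7.01% of all genes were lower and 6.28% higher. Of 10 other ribosome components 5 were measured, and 1 had an unadjusted p under 0.05, Rps4y2 (change -1.24 ± 0.37, adjusted p = 0.19, above background on 4 arrays). Of 42 assembly factors, which build the subunits in the nucleolus, 41 were measured with a median change of -0.11, and at an unadjusted p under 0.05 there were 2 higher and 2 lower. Rrs1 (2.42 ± 0.98, adjusted p = 0.41) and Mrto4 (1.32 ± 0.50, adjusted p = 0.37) were the 2 higher. Riok1 (-1.58 ± 0.71, adjusted p = 0.50) and Mybbp1a (-1.12 ± 0.50, adjusted p = 0.50) were the 2 lower. Of 19 further mRNAs with a 5′ oligopyrimidine tract 15 were measured, with a median change of -0.30, and 0 had an unadjusted p under 0.05. Among them are the initiation factor genes Eif3h (-1.22 ± 0.64, adjusted p = 0.60) and Eif4b (-1.21 ± 0.61, adjusted p = 0.58). Of 16 regulators of ribosome production and of these mRNAs 14 were measured, with a median of -0.38 and 3 lower at an unadjusted p under 0.05, among them the mTOR inhibitor Tsc2 (-1.51 ± 0.55, adjusted p = 0.34).

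Markers of other cells moved between the stages. Of 15 macrophage and leucocyte markers 9 passed as higher in adult axons, and the log2 of their summed level was 7.47 to 11.01 in embryonic and 12.62 to 13.74 in adult samples. Of 13 sensory neuron and axon markers 5 passed as lower, with sums of 12.46 to 14.63 and 10.60 to 13.15. Of 6 erythroid markers 1 passed as lower (8.23 to 10.50 and 5.36 to 7.95). For Schwann cells, satellite glia, fibroblasts, endothelium and neuronal cell bodies 0 markers passed, and Kcnj10, Fbln1, Pecam1 and Tlx3 of these lists were below background on all arrays. The macrophage sums overlapped between wide (12.62 and 13.74) and narrow adult arrays (12.80 to 13.64), the arrays between which the ribosomal protein genes differed. The part of any of these lists in the members' values between the stages was not tested.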

How the data were processed

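RNA was measured on 10 one-colour arrays (5 embryonic, 5 adult). The deposited values are log2 intensities made by the authors with RMA, per the submitters' processing notes; its version and options were not found in these sources. The base 2 was taken from the range of the values. The table has 31099 probe sets, of which 57 controls were left out and 31042 tested. RMA compresses differences of weak probe sets. Precision is limited by having 10 arrays.

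The stages were compared with limma (version 3.58.1, lmFit and eBayes, two-sided, under R 4.3.3), and adjusted p-values are Benjamini-Hochberg values over 31042 probe sets. A gene's probe set was the single-symbol one of highest mean. Python 3.11.15, pandas 2.3.3 and matplotlib 3.10.9 were used for summaries and figures. The fit was tested on simulated data. The members, the lists, the spread of arrays and the alternatives were chosen with earlier results of these data known, and the comparison with the top 5% of genes was added later. Genes named are the 5 largest and 5 smallest changes, the 5 highest and 5 lowest ranks, the 3 largest and 3 smallest spreads, paralogue pairs, genes with discordant probe sets, Rplp0, Rpsa, Rps6 and Rpl22, and up to 2 genes per companion list; Rpl5, Rpl11, Rpl35 and the other genes named were chosen after their values were seen. Replicate numbers were not treated as pairs in the main fit. Deviations of same-numbered arrays correlated at -0.12, 0.05, 0.17, -0.11 and 0.28, and only embryonic replicate 5 correlated best with the adult array of its number. The arrays also differ in spread, so these correlations cannot decide whether samples were paired. Alternatives were other scalings, a filter, another variance model, array weights, blocks, other probe set rules, a higher or lower background level and omission of single arrays.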

Additional observations from a re-analysis of the deposited data

Results flagged for a closer look

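A single array lay apart from the other 4 of its stage, with a gap that was large against the group's range, in 4 of 56 groups tested. Chance alone gives this in about 1 of 20 groups. Rpl24 was at 8.73 on embryonic replicate 5, where the nearest other embryonic array was at 7.99. Rpl35a was at 10.96 on the same array, against 10.76 on the nearest. Rplp0 was at 8.86 on embryonic replicate 4, against 10.07 on the nearest. Rpl28 was at 4.99 on adult replicate 5, against 2.92 on the nearest, and was below background on the other 9 arrays.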

How the results depend on the processing

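The count of ribosomal protein genes past the threshold was 0 in every alternative run except spread as a block, which gave 2. Over all genes 179 passed, against 325 with a filter on weak probe sets, 276 with spread as a block (161 lower), 0 on wide arrays only, where 2 arrays a stage were left, and 101 to 248 without 1 array. The replicate number as a block gave 135 (62 lower, 73 higher) and 0 ribosomal protein genes, and not every array correlated best with its own number. The members' median change was -0.59 to -0.15 without 1 array (lowest without adult replicate 5, highest without adult replicate 2); on narrow arrays it was -0.93 for both subunits and for the large one, and on wide arrays 0.26 for the large one. The adult median percentile was 99.36 under cyclic loess and 99.64 on wide arrays, and 18 members had the larger adult SD on wide arrays. Large minus small subunit was 0.50 (adult) and 0.74 (embryonic) with the mean of a gene's probe sets, and 0.72 and 0.83 without probe sets of shared sequence. Rpl3 minus Rpl3l, where Rpl3l is below background, changed by -0.016 with the mean of probe sets and by -0.26 to 0.58 without 1 array; Rpl7 minus Rpl7l1 changed by 0.047 (quantile), 0.080 (cyclic loess), 0.12 (mean of probe sets) and by -0.34 to 0.046 without 1 array. Among 25 named members, 11 kept their sign in all alternatives run: Rpl24, Rpl28, Rpl30, Rpl4, Rpl41, Rplp0, Rps13, Rps15, Rps28, Rps29 and Rpsa. The sign turned on wide arrays for Rpl19 (0.48), Rpl22 (0.70), Rpl26 (0.25), Rpl35a (0.12), Rpl6 (0.99), Rps23 (0.29) and Rps27l (0.40), and on narrow arrays for Rpl3 (-0.65), Rpl3l (0.081), Rpl7 (-0.0024), Rps3 (-0.16) and Rps6 (-0.54). It turned under quantile and cyclic loess scaling for Rpl22 (0.29, 0.42), Rpl26 (0.30, 0.34), Rpl35a (0.23, 0.37) and Rps23 (0.20, 0.32), and under the latter for Rps27l (0.051). It turned with array weights for Rpl3 (-0.034) and Rpl3l (0.0075), with the mean of probe sets for Rpl3 (-0.032) and without shared sequence for Rps24 (0.25). Without 1 array the change ranged over 0 for Rpl22 (-0.37 to 0.18), Rpl3 (-0.23 to 0.57), Rpl35a (-0.26 to 0.057), Rpl39 (-0.24 to 0.21), Rpl3l (-0.16 to 0.088) and Rps6 (-0.17 to 0.39). The cause was not tested. With 5 arrays a stage, changes of 1 on the log2 scale stayed mostly below the threshold in data simulated over all probe sets, which was not done for the members alone. Values of Rpl28, Rpl30, Rpl3l and Rps13 lie near background.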
